A study of Homo sapiens with 9 samples.

Results

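The folliculin-FNIP and mTORC1 regulator mRNAs described here are the products of 10 genes, FNIP1, FNIP2, FLCN, MTOR, RPTOR, RHEB, RRAGA, RRAGC, TSC1 and TSC2, taken by symbol from the deposited count tables and making up 10 of the 42785 genes listed there. The set was chosen by the measured difference of FNIP1 between the DCC and Nrp1 pulldowns in earlier results of these data, so values from that contrast are given only as a description. RNA came from SH-SY5Y, a human neuroblastoma line, grown without any guidance cue named in the labels. The 9 libraries formed 3 groups of 3: DCC-IP, the RNA bound to beads carrying a mouse antibody against DCC, a netrin receptor; Nrp1-IP, the RNA bound to beads carrying a rabbit antibody against Nrp1, a semaphorin receptor; and Input, the RNA of the lysate. All groups share the same cell line, nuclei were spun out of the lysate before the pulldowns, the cDNA was amplified by PCR, and no pulldown with a control antibody is among the 9 libraries. The study reports RNA on a gel after both receptor pulldowns and not after pulldowns with a control antibody.

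Gene counts summed to between 8838296 and 11055895 per library, and 6652 to 12240 genes had at least 1 count. The floor of detection used here, 3 counts, corresponded to 0.204 to 0.426 CPM, where CPM is the count scaled to a common library size over the 9 libraries by edgeR's TMM method. Counts were not from unique molecules, so floors and intervals cover counting error only. A single mRNA, MAP1B, held 40.3% to 52.1% of the counts of a DCC-IP library, against 1.58% to 2.44% for Nrp1-IP and 1.87% to 2.25% for Input. Of 12 noradrenergic neuroblastoma markers, 11 exceeded the floor in at least 1 library and 3 (ISL1, CHGB and GATA3) in all 9, while TH had no count, and their summed level was 287 to 474 CPM in Input, 1278 to 4444 CPM in DCC-IP and 1023 to 1348 CPM in Nrp1-IP. Their part in the differences below was not tested. DCC mRNA itself had no count in any of the 9 libraries, and NRP1 mRNA averaged 30.6 CPM in Input, 5.00 CPM in Nrp1-IP and 1.26 CPM in DCC-IP. The study states that this line expresses both receptors, and these counts do not measure receptor protein. Every library is a lysate or pulldown of 1 cell line, so fewer cells holding an mRNA and less of it per cell cannot be told apart, and neither can more of one mRNA and less of the rest.

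mTORC1 is a protein kinase complex on the lysosome that couples amino acids and growth factors to protein synthesis. MTOR is its catalytic subunit and RPTOR (raptor) its substrate-binding subunit. Amino acids bring it to the lysosome through heterodimers of Rag GTPases, among them the products of RRAGA and RRAGC, and folliculin (FLCN), bound to FNIP1 or FNIP2, acts on RagC as a GTPase-activating protein. Growth factor signals converge on TSC1 and TSC2 (hamartin and tuberin), which hold back RHEB, the small GTPase that switches mTORC1 on. In neurons the pathway is known for its control of local translation in axons.

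Most of the 10 mRNAs were scarce in these libraries. FNIP1 and TSC1 had at least 1000 counts in all 9 libraries, and the highest count of any of the 8 other genes in any library was 226. Only FNIP1, TSC1 and FLCN were above the floor in all 9 libraries, and RPTOR had no count in any, which allows a level of up to 0.204 to 0.426 CPM. Across all listed genes, 3185 of 42785 were above the floor in all 9 libraries. The group comparisons used edgeR's quasi-likelihood test on genes that passed a filter on low counts, with a gene called at a Benjamini-Hochberg adjusted p under 0.05. Under that filter 5 of the 10 genes were tested between DCC-IP and Input (FNIP1, FNIP2, FLCN, RRAGC and TSC1), and 6 between Nrp1-IP and Input and between the pulldowns, where MTOR also passed. RPTOR, RHEB, RRAGA and TSC2 were tested in no comparison.

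**Figure D1:**
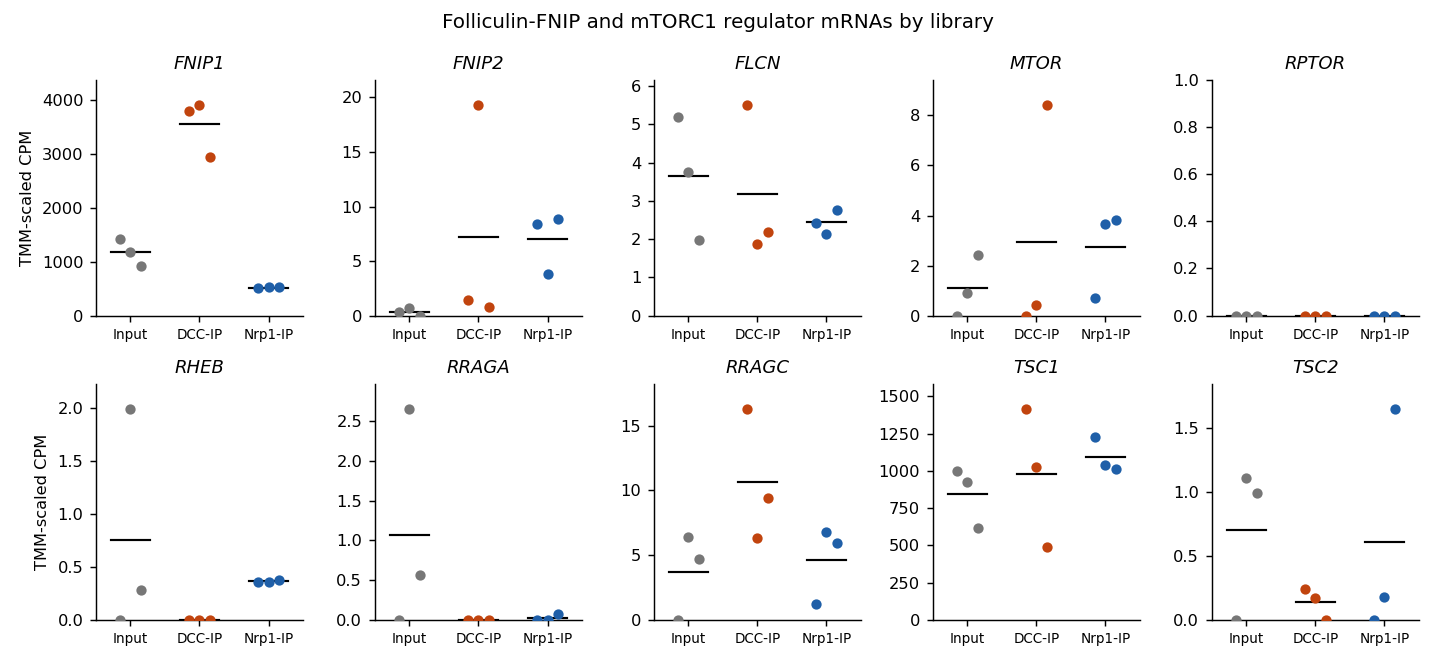
Level of each of the 10 mRNAs in TMM-scaled CPM (vertical axes, linear, each gene on its own scale) in the Input, DCC-IP and Nrp1-IP libraries; each point is 1 library, in the order of the replicate numbers, and each line the mean of 3. FNIP1 lies between 2945 and 3912 CPM in DCC-IP, above all Input libraries (925 to 1427 CPM), and between 506 and 536 CPM in Nrp1-IP, below them.

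FNIP1, the folliculin partner, lay at a separate level in each group. DCC-IP replicates 1 to 3 gave 31033, 45795 and 43397 FNIP1 counts, which is 3795, 3912 and 2945 CPM. Input held 12119, 10756 and 6511 counts, or 1427, 1189 and 925 CPM, and Nrp1-IP held 5638, 6032 and 7003 counts, or 506, 536 and 524 CPM. The 3 groups did not overlap: all DCC-IP libraries lay above all Input libraries, as for 15.7% of the genes tested there, and all Nrp1-IP libraries below them. Input averaged 1180 ± 252 CPM, DCC-IP 3551 ± 528 CPM and Nrp1-IP 522 ± 15.2 CPM (SD over 3 libraries). Ranked by raw count, which grows with mRNA length as well as abundance, FNIP1 was between the 15th and 26th gene of a DCC-IP library, between the 171st and 262nd of an Input library and between the 260th and 268th of an Nrp1-IP library.

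In DCC-IP against Input, FNIP1 was higher by 1.60 on the log2 scale (SE 0.33, 95% interval 0.85 to 2.36), a 3.04-fold difference, with an adjusted p of 0.0322 in edgeR. It was the only one of the 5 tested members that was called, against a background of 4.98% of all 6223 tested genes, 1.46% called higher and 3.52% lower. The ratios of DCC-IP to the Input library of the same replicate number were 2.66, 3.29 and 3.19. The comparison shares its DCC-IP libraries with the contrast in which FNIP1 was noticed, and so is not independent of that choice. The direction held whichever library was left out (log2 1.33 to 1.98). With edgeR's test the call remained only without DCC-IP replicate 3 (adjusted p 0.0478). The adjusted p was 0.122 and 0.141 without DCC-IP replicates 1 and 2, and 0.120, 0.140 and 0.0527 without Input replicates 1, 2 and 3. Of all genes, 0 were called higher and 0 lower without DCC-IP replicate 1, and 1 higher and 0 lower without replicate 2. A lost call in the fits without DCC-IP replicates 1 and 2 is therefore not particular to FNIP1. The fits without Input replicates 1, 2 and 3 called 1, 14 and 36 genes higher and 30, 82 and 214 lower. FNIP1 was not among them. With MAP1B left out of the table, the difference was 1.86 and the adjusted p 0.0576, and with RLE size factors 1.50 and 0.0678. The call was kept in 6 of the 8 other settings. Among them, the replicate number as a block gave 1.64 with an adjusted p of 0.00658 in edgeR's test.

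In Nrp1-IP against Input, FNIP1 had a log2 difference of -1.10 (SE 0.29, 95% interval -1.78 to -0.42), with an adjusted p of 0.0729 in the edgeR test, and was not called. The 3 Nrp1-IP libraries nevertheless all lay below the 3 Input libraries, as 14.5% of the 6501 tested genes did, with ratios to the Input library of the same number of 0.354, 0.451 and 0.566. The call depended on the settings. FNIP1 passed the threshold with DESeq2 (log2 -1.29, adjusted p 0.00474), with RLE size factors in edgeR (-1.29, 0.0443), without the filter on low counts (-1.18, 0.00787), with at least 10 counts required in every library (-1.11, 0.0245) and without Input replicate 3 (-1.48, 0.00777). Its log2 difference in the other settings stayed below 0, with library size only giving -0.69.

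None of the 6 members tested between Nrp1-IP and Input was called by edgeR's quasi-likelihood test, while 4.97% of all 6501 genes were (1.94% higher and 3.03% lower). At an unadjusted p under 0.05, FNIP1 and FNIP2 passed, that is 2 of 6, beside 21.6% of all tested genes, and DESeq2 called 2 of the members. For DCC-IP over Input, 2 of 5 members (FNIP1 and FNIP2) were at an unadjusted p under 0.05, beside 22% of all genes. Members with few Input counts, such as FNIP2, passed the filter on low counts through the pulldowns, and others did not pass it, so nothing is read from these counts about the members as a set. Both comparisons use the same Input libraries and are not independent of each other.

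**Figure D2:**
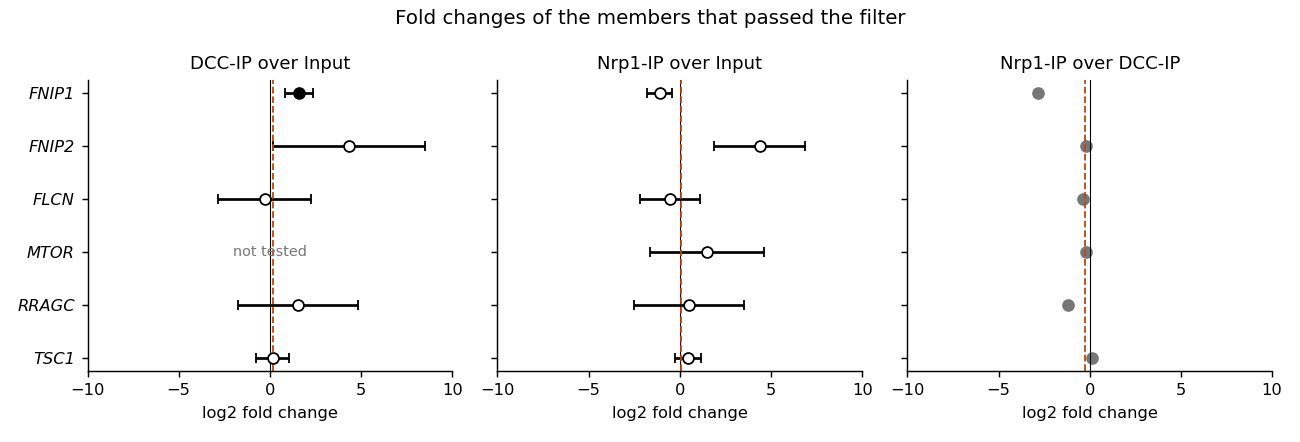
Log2 fold change (horizontal axes) of the members that passed the filter, for each pulldown over Input and, on the right, for Nrp1-IP over DCC-IP; bars are 95% intervals, filled black points passed an adjusted p of 0.05, the dashed line is the median of all tested genes, and the grey points are descriptive values with no interval. FNIP1 is at 1.60 over Input in DCC-IP and at -1.10 in Nrp1-IP, while the intervals of FLCN, RRAGC and TSC1 include 0 in both.

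FNIP2, the paralogue that can replace FNIP1 in the folliculin complex, was measured at far fewer counts. Input replicates 1 to 3 had 3, 6 and 0 counts, DCC-IP 12, 226 and 12, and Nrp1-IP 94, 43 and 118. Every pulldown library was above every Input library, as for 15.7% of genes with DCC-IP and 17.5% with Nrp1-IP, and only 1 Input library exceeded the floor. The log2 difference to Input was 4.34 in DCC-IP (SE 1.84, adjusted p 0.213) and 4.38 in Nrp1-IP (SE 1.08, adjusted p 0.0618) by edgeR's quasi-likelihood test, so neither was called, and the size of both rests on 9 Input counts. In DCC-IP it came mainly from replicate 2, without which it was 2.04 with an adjusted p of 0.706. In Nrp1-IP it was called with DESeq2 (adjusted p 0.000944), with library size only (0.0447) and without the filter (0.0085), but in none of the 6 fits that left out a library. Those without an Nrp1-IP library called at most 7 genes of any kind. The fits without Input replicates 1, 2 and 3 called 3, 36 and 111 genes higher and 74, 126 and 330 lower. FNIP1 made up at least 99.5% of the summed FNIP1 and FNIP2 counts in each DCC-IP library, 98.3% to 99.3% in Nrp1-IP and at least 99.9% in Input, as shares of counts not corrected for mRNA length.

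FLCN, which encodes folliculin itself, was measured at low counts, and its groups were not separate as those of FNIP1 were. Its counts were 44, 34 and 14 in the Input libraries, 45, 22 and 32 after the DCC pulldown and 27, 24 and 37 after the Nrp1 pulldown, corresponding to 3.64 ± 1.60, 3.18 ± 2.01 and 2.44 ± 0.317 CPM (SD over 3 libraries). All 3 groups overlapped. Its log2 difference to Input was -0.29 in DCC-IP (95% interval -2.83 to 2.24, adjusted p 0.910) and -0.52 in Nrp1-IP (95% interval -2.17 to 1.13, adjusted p 0.736) by edgeR's quasi-likelihood test. These intervals leave room for changes as large as that of FNIP1, so a difference of that size was not detectable at this depth.

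TSC1, the scaffold subunit of the complex that restrains RHEB, was as well covered as FNIP1 and did not separate in the same way. DCC-IP replicates 1 to 3 had 11558, 12026 and 7229 counts, or 1413, 1027 and 491 CPM. Nrp1-IP had 13639, 11666 and 13521 counts, or 1223, 1037 and 1011 CPM, and Input 8487, 8363 and 4343 counts, or 1000, 925 and 617 CPM. DCC-IP covered the whole span of the other libraries, its replicate 3 being the lowest of all 9, whereas every Nrp1-IP library lay above every Input library, as was the case for 17.5% of the genes tested there. Input averaged 847 ± 203 CPM, DCC-IP 977 ± 463 CPM and Nrp1-IP 1090 ± 116 CPM (SD over 3 libraries).

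The log2 difference of TSC1 to Input was 0.14 in DCC-IP (95% interval -0.78 to 1.06, adjusted p 0.880) and 0.45 in Nrp1-IP (95% interval -0.26 to 1.15, adjusted p 0.455) by edgeR's quasi-likelihood test. The DCC-IP interval ends below the 1.60 measured for FNIP1 but overlaps the FNIP1 interval of 0.85 to 2.36. A difference between the 2 genes was not tested. The sign in DCC-IP turned without DCC-IP replicate 1 (-0.04) and without Input replicate 3 (-0.15). TSC2, the catalytic partner of TSC1, had 0, 10 and 7 counts in the Input libraries, 2, 2 and 0 after the DCC pulldown and 0, 2 and 22 after the Nrp1 pulldown, so that 6 of the 9 libraries were at or below the floor and no fold is given.

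Since FNIP1 and TSC1 were well covered everywhere, their ratio within a library could be read without any scaling between libraries, a measure chosen after the values were seen and given as a description. FNIP1 made up 72.9%, 79.2% and 85.7% of the summed FNIP1 and TSC1 counts in DCC-IP replicates 1 to 3. The Nrp1-IP shares were 29.3%, 34.1% and 34.1%, and the Input shares 58.8%, 56.3% and 59.99%. The groups did not overlap, with means of 58.4 ± 1.91% for Input, 79.3 ± 6.43% for DCC-IP and 32.5 ± 2.80% for Nrp1-IP (SD over 3 libraries), and the widest Wilson 95% interval of a single library ran from 59.1% to 60.9%, in Input replicate 3. The separation of DCC-IP from Nrp1-IP is the contrast by which FNIP1 was chosen.

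**Figure D3:**
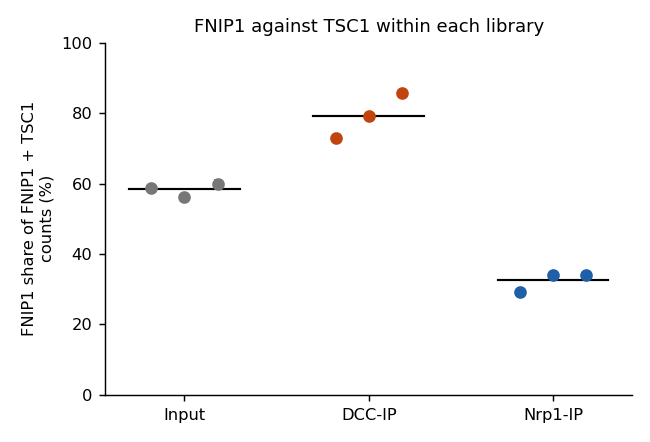
FNIP1 as a percentage of FNIP1 plus TSC1 counts (vertical axis, 0 to 100%) in each Input, DCC-IP and Nrp1-IP library; each point is 1 library with its Wilson 95% interval, mostly hidden by the point, and each line the mean of 3. DCC-IP lies at 72.9% to 85.7%, Input at 56.3% to 59.99% and Nrp1-IP at 29.3% to 34.1%.

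The mRNAs of the kinase and of its activator RHEB had low counts that varied between libraries. MTOR had 0, 8 and 17 counts in the Input libraries, 0, 5 and 124 after the DCC pulldown and 8, 41 and 51 after the Nrp1 pulldown, and the DCC-IP mean of 2.95 ± 4.74 CPM (SD, n = 3) came almost wholly from replicate 3. Nrp1-IP and Input overlapped, and the log2 difference between them was 1.48 (95% interval -1.64 to 4.60, adjusted p 0.592 by edgeR's quasi-likelihood test). RHEB was not counted after the DCC pulldown, had 4, 4 and 5 counts after the Nrp1 pulldown and 0, 18 and 2 in the Input libraries. For RHEB the limit of 3 counts leaves levels of up to 0.204 to 0.367 CPM possible in DCC-IP, close to the 0.355 to 0.374 CPM measured in Nrp1-IP.

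Of the Rag GTPases, RRAGA had 0, 24 and 4 counts in the Input libraries, none after the DCC pulldown and 0, 0 and 1 after the Nrp1 pulldown, so that 2 libraries in all, both Input, exceeded the floor. RRAGC, whose product is the Rag on which folliculin acts, had 0, 58 and 33 counts in the Input libraries, 133, 74 and 139 after the DCC pulldown and 14, 76 and 79 after the Nrp1 pulldown. The lowest DCC-IP library, at 6.32 CPM, lay just under the highest Input library, at 6.41 CPM, so the groups overlapped. The log2 difference of RRAGC to Input was 1.53 in DCC-IP (95% interval -1.76 to 4.81, adjusted p 0.606) and 0.50 in Nrp1-IP (95% interval -2.51 to 3.51, adjusted p 0.878) by edgeR's quasi-likelihood test. The sign in Nrp1-IP turned without Input replicate 1, which has no RRAGC count (-0.24, adjusted p 0.911).

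Between the pulldowns, the contrast in which FNIP1 was noticed, Nrp1-IP stood to DCC-IP at a log2 difference of -2.83 for FNIP1, -1.20 for RRAGC, -0.37 for FLCN, -0.22 for both FNIP2 and MTOR and 0.13 for TSC1. With the replicate block FNIP2 was at 1.52 and MTOR at 1.94, so both signs turned. The median of all 6439 tested genes was -0.27. FNIP1 was the member called in that contrast, beside 3.65% of all tested genes, 2.56% higher and 1.09% lower in Nrp1-IP. Nothing is read from that count, since the choice of FNIP1 used it.

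The genes whose log2 CPM followed FNIP1 most closely over the 9 libraries were, out of 7627 genes compared, SBNO1 (Pearson's r 0.960), ZFX (0.959), THADA (0.955), REV3L-IT1 (0.940) and RPL21 (0.937). Only 1 of these 5 was also among the 5 highest by Spearman's rho. The libraries fall into 3 groups and share their scaling, so the correlations are descriptions. ZFX, for example, averaged 4490 CPM in DCC-IP, 815 CPM in Input and 544 CPM in Nrp1-IP, the same order as FNIP1. RPL21 has many processed copies in the genome and its counts are uncertain.

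The wider pathway was described by 75 further genes in 8 lists, of which 21 were above the floor in all 9 libraries, 13 in none, while 33 were tested between DCC-IP and Input, 36 between Nrp1-IP and Input and 35 between the pulldowns. For DCC-IP, edgeR called 1 of the 33 higher (DEPDC5) and 2 lower (EIF4EBP2 and PDCD4), beside 4.98% of all genes. Their median log2 difference was 0.38, beside 0.16 for all tested genes. With the replicate number as a block, 6 pathway genes and 715 genes in all were called in place of 3 and 310. In Nrp1-IP over Input, 1 of 36 was called higher (DEPDC5) and 2 lower (EIF4E and PDCD4), beside 4.97% of all genes, with a median of 0.15 beside 0.06. With MAP1B left out of the table, none of the 33 pathway genes was called in DCC-IP over Input, beside 73 genes in all. Of the 8 other settings, 5 called DEPDC5, 7 EIF4EBP2 and 6 PDCD4 in DCC-IP, and all 8 called DEPDC5, EIF4E and PDCD4 in Nrp1-IP.

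**Figure D4:**
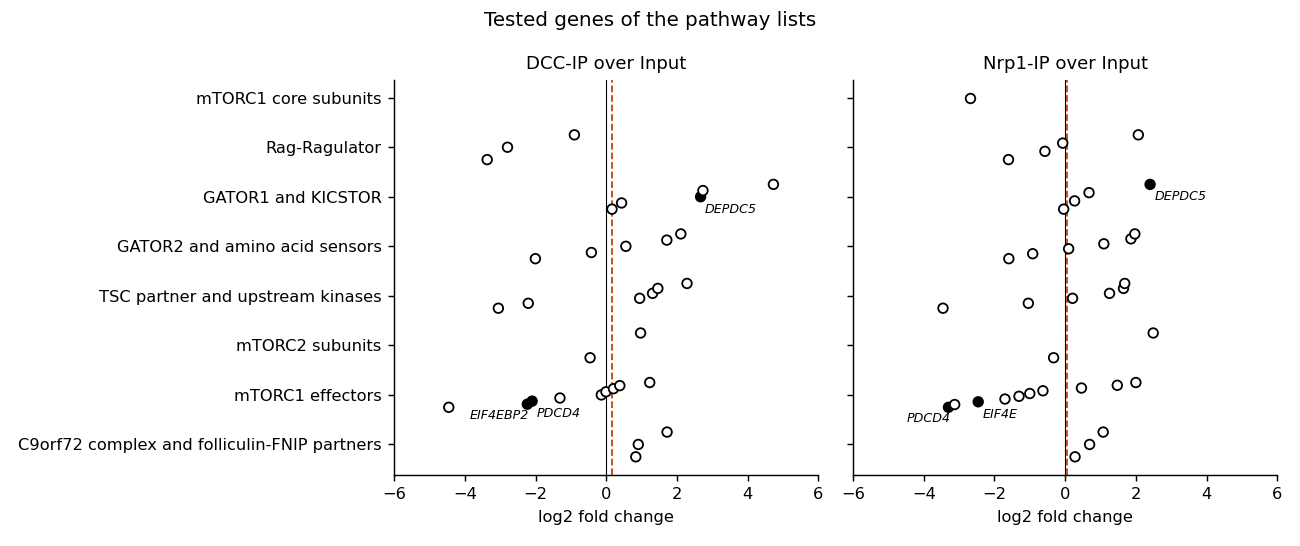
Log2 fold change (horizontal axes) of the tested pathway genes in each pulldown over Input, by list; each circle is 1 gene, filled circles passed an adjusted p of 0.05 and carry their names, and the dashed line is the median of all tested genes. DEPDC5 is called at 2.67 over Input in DCC-IP and at 2.40 in Nrp1-IP, and the called effector genes lie left of 0.

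Upstream of the Rags, 1 of 5 tested genes of GATOR1, the complex that inactivates RagA, and of KICSTOR, its lysosomal anchor, was called in DCC-IP over Input and 1 of 4 in Nrp1-IP over Input, beside 4.98% and 4.97% of all genes. The gene called in both was DEPDC5, a GATOR1 subunit, with 108, 132 and 86 counts in the Input libraries, 933, 1192 and 613 after the DCC pulldown and 780, 630 and 930 after the Nrp1 pulldown. All 6 pulldown libraries lay above all Input libraries. Of all tested genes, 15.7% lay above Input in this way with DCC-IP and 17.5% with Nrp1-IP. DEPDC5 was higher than Input by 2.67 in DCC-IP (SE 0.60, 6.36-fold, adjusted p 0.0423) and by 2.40 in Nrp1-IP (SE 0.37, 5.29-fold, adjusted p 0.0173) by edgeR's quasi-likelihood test, 2 comparisons that share the Input libraries. In DCC-IP the call remained without DCC-IP replicate 3 (adjusted p 0.0411) and was lost without any other library (0.119 without DCC-IP replicate 1, 0.148 without replicate 2, and 0.195, 0.180 and 0.114 without Input replicates 1, 2 and 3). In Nrp1-IP it was lost without Nrp1-IP replicates 1, 2 and 3 (0.127, 0.120 and 0.103) and Input replicate 1 (0.0645). Of all genes, 0, 7 and 7 were called without Nrp1-IP replicates 1, 2 and 3, and 0 and 1 without DCC-IP replicates 1 and 2. A lost call in the fits just listed is therefore not particular to DEPDC5. In DCC-IP over Input, the fits without Input replicates 1, 2 and 3 called 1, 14 and 36 genes higher and 30, 82 and 214 lower. In Nrp1-IP over Input, the fit without Input replicate 1 called 3 genes higher and 74 lower. DEPDC5 was not among them.

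KPTN (kaptin), a KICSTOR subunit, had 2, 5 and 10 counts in the Input libraries, 418, 98 and 67 after the DCC pulldown and 4, 5 and 6 after the Nrp1 pulldown. It passed the filter on low counts through DCC-IP, where it is high, and was not tested between Nrp1-IP and Input. Its fold and calls below are therefore given as a description. The 3 DCC-IP libraries were above all the others, with replicate 1 far above replicates 2 and 3. Of all tested genes, 15.7% were separate from Input in this direction and 11.7% from Nrp1-IP. The log2 difference to Input was 4.73 in DCC-IP (SE 1.26, adjusted p 0.0661, not called by edgeR's test), and it was called without DCC-IP replicate 3 (5.75, adjusted p 0.0451) and under 3 of 7 other settings. KPTN overlaps NAPA and NAPA-AS1 in the current human annotation, and these had at most 65 and 13 counts. In the Rag-Ragulator list, RNF152, a ubiquitin ligase for RagA, had 675, 1216 and 437 counts in the Input libraries, 66, 174 and 217 after the DCC pulldown and 817, 636 and 1552 after the Nrp1 pulldown. DCC-IP lay below both other groups, which overlapped. Of all tested genes, 17.8% lay below Input in this way and 14.4% below Nrp1-IP. The log2 difference of RNF152 to Input was -2.79 in DCC-IP (SE 0.69, adjusted p 0.0545, and 0.0252 with the replicate block) and -0.07 in Nrp1-IP (adjusted p 0.952) by edgeR's quasi-likelihood test. RRAGD, the paralogue of RRAGC, had -0.90 (adjusted p 0.619) and -0.57 (0.497).

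**Figure D5:**
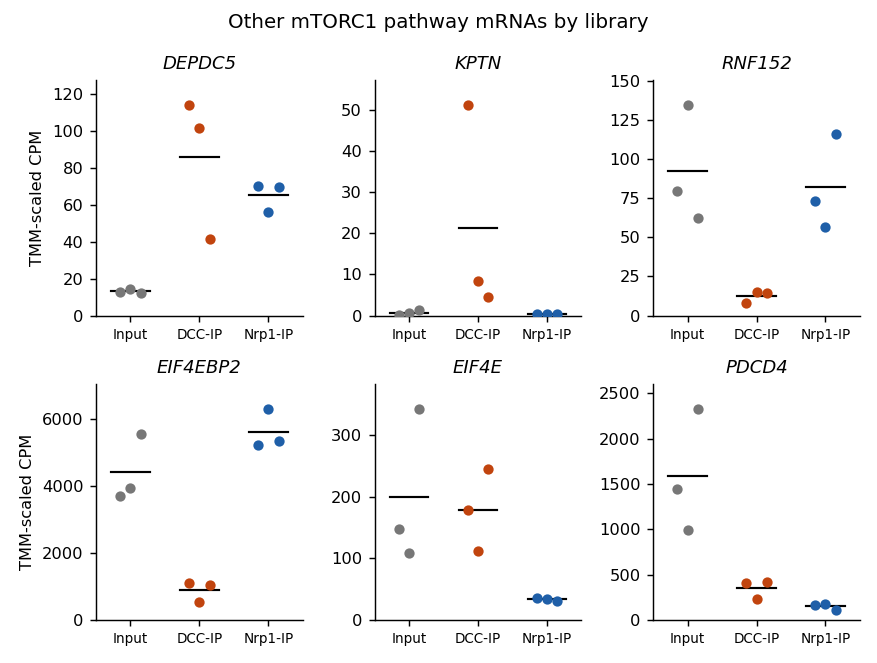
Level of 6 pathway mRNAs in TMM-scaled CPM (vertical axes, linear, each gene on its own scale) in the Input, DCC-IP and Nrp1-IP libraries; each point is 1 library and each line the mean of 3. EIF4EBP2 and RNF152 are lowest in DCC-IP, EIF4E and PDCD4 lowest in Nrp1-IP, and DEPDC5 lowest in Input.

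Among the mTORC1 effectors, 2 of 9 tested genes were called in DCC-IP over Input, beside 4.98% of all genes, and 2 of 10 in Nrp1-IP over Input, beside 4.97%. EIF4EBP2, a repressor that binds EIF4E until mTORC1 phosphorylates it, had 31466, 35652 and 39035 counts in the Input libraries, 9022, 6348 and 15234 after the DCC pulldown and 58199, 70657 and 71141 after the Nrp1 pulldown. DCC-IP lay below all other libraries, and Nrp1-IP and Input overlapped on the CPM scale. DCC-IP was below Input in this way for 17.8% of all tested genes, and below Nrp1-IP for 14.4%. The log2 difference to Input was -2.23 in DCC-IP (SE 0.36, adjusted p 0.0126) and 0.46 in Nrp1-IP (SE 0.23, adjusted p 0.294, called with library size only at 0.84 and 0.0435) by edgeR's quasi-likelihood test. The DCC-IP call was lost without DCC-IP replicates 1, 2 and 3 (adjusted p 0.0935, 0.160 and 0.0623) and without Input replicate 1 (0.0741). As given above, almost no gene of any kind was called without DCC-IP replicate 1 or 2. Without DCC-IP replicate 3, 139 genes were called higher and 67 lower. The fit without Input replicate 1 called 1 gene higher and 30 lower.

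EIF4E, the cap-binding protein, showed the other arrangement. It had 1259, 987 and 2413 counts in the Input libraries, 1461, 1312 and 3613 after the DCC pulldown and 399, 381 and 407 after the Nrp1 pulldown. Every Nrp1-IP library was below all others, and DCC-IP overlapped Input. Nrp1-IP was below Input in this way for 14.5% of all tested genes, and below DCC-IP for 11.7%. The log2 difference of EIF4E to Input was -0.01 in DCC-IP (95% interval -1.26 to 1.24, adjusted p 0.996) and -2.46 in Nrp1-IP (SE 0.47, adjusted p 0.0308) by edgeR's quasi-likelihood test. The Nrp1-IP call was lost without Nrp1-IP replicates 1, 2 and 3 (adjusted p 0.159, 0.187 and 0.131) and without Input replicate 1 (0.0563). As given above, the fits without an Nrp1-IP library called few genes of any kind. The fit without Input replicate 1 called 3 genes higher and 74 lower.

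PDCD4, an inhibitor of the initiation factor helicase, was lower in both pulldowns. It had 12286, 8918 and 16370 counts in the Input libraries, 3292, 2626 and 6074 after the DCC pulldown and 1836, 1920 and 1491 after the Nrp1 pulldown. No pulldown library reached the lowest Input library, as for 17.8% of tested genes with DCC-IP and 14.5% with Nrp1-IP. PDCD4 was 4.28-fold lower than Input in DCC-IP (SE 0.42 on the log2 scale, adjusted p 0.0289) and 9.87-fold lower in Nrp1-IP (SE 0.40, adjusted p 0.0109) by edgeR's quasi-likelihood test. In DCC-IP the call held without Input replicate 3 (adjusted p 0.0421) and was lost without Input replicates 1 and 2 (0.136 and 0.0525) and without DCC-IP replicates 1, 2 and 3 (0.132, 0.218 and 0.0855). In Nrp1-IP it was lost without Nrp1-IP replicates 1, 2 and 3 (0.108, 0.114 and 0.0777). Few genes of any kind were called in these Nrp1-IP fits or without DCC-IP replicate 1 or 2. In DCC-IP over Input, 139 genes were called higher and 67 lower without DCC-IP replicate 3. The fits without Input replicates 1 and 2 called 1 and 14 higher and 30 and 82 lower. The gene overlaps BBIP1, which moved with it (4515, 3076 and 4382 counts for Input, 1134, 850 and 2081 for DCC-IP, 824, 766 and 668 for Nrp1-IP), and the strand setting of the counting is not given in the sources used here, so reads of the pair may be shared.

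The replicate block also changed the call of SEH1L, a subunit of GATOR2 and of the nuclear pore, in DCC-IP over Input. Its log2 difference was -2.01 (adjusted p 0.0937) in edgeR's quasi-likelihood test without the block and -2.14 (adjusted p 0.0442) with it. All DCC-IP libraries lay below all Input libraries, as 17.8% of the tested genes did. RICTOR, the defining subunit of mTORC2 (0.97, adjusted p 0.590), and C9orf72, which forms a complex with SMCR8 and WDR41 (0.84, adjusted p 0.573), were not called. No mTORC1 core subunit from the lists was tested in DCC-IP, and MLST8 had no count there.

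In Nrp1-IP over DCC-IP, 4 of 35 tested pathway genes were called, beside 3.65% of all genes, with EIF4EBP2 (2.63) and RNF152 (2.60) higher in Nrp1-IP and EIF4E (-2.47) and KPTN (-5.56) lower. The median of the 35 was -0.34, beside -0.27 for all genes. These log2 values are given as a description, and KPTN passed the filter on low counts through DCC-IP.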

How the data were processed

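The 9 libraries came from SH-SY5Y cells, 3 each of DCC-IP, Nrp1-IP and Input, grouped by the sample labels. The authors aligned reads with HISAT2 2.1.0, counted them with HTSeq 0.11.0 and deposited raw counts per gene symbol; hg19 is named in the submitters' processing notes, and annotation and strand setting are not given in the sources used here. The 5 HTSeq summary lines, which hold 68.7% to 70.8% of the reads tallied, were left out. The study's methods call replicates independent, but the labels name no separate cultures, so p-values measure the spread between these samples.

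Each pair of groups was fitted on its 6 libraries in edgeR 4.0.16 (R 4.3.3, limma 3.58.1) with filterByExpr (minimum count 10), TMM, glmQLFit and glmQLFTest. Benjamini-Hochberg adjustment ran over all genes tested. The standard error is the log2 fold change divided by the square root of F. Likeness to FNIP1 used log2 CPM with a prior count of 2. Of the 75 pathway genes, 4 were matched by an older symbol. Overlapping genes were read from RefSeq genes of GRCh38.p14.

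Members and lists were chosen with earlier results of these data known. Named genes are the 10 members, pathway genes called in any comparison, the pathway gene with the most counts in each list, the 5 genes most like FNIP1, and MAP1B, DCC and NRP1; BBIP1, NAPA and NAPA-AS1 were added after their values were seen, and 1 gene under this rule is not reported here. Deviations from the group means of same-numbered DCC-IP and Input libraries had r 0.117, 0.188 and 0.418 over 7628 genes. A pair of different numbers, DCC-IP replicate 2 with Input replicate 1, had 0.140. The other pairs of different numbers in that comparison were all below 0, from -0.310 to -0.0165. The replicate block is given where it changes a call. Alternatives were DESeq2 1.42.0, RLE size factors, library size only, MAP1B left out, no low-count filter, a minimum of 10 counts per library, a joint fit of all 9 libraries, the replicate block, and each library left out.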

Additional observations from a re-analysis of the deposited data

Results flagged for a closer look

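The level of FNIP1 differed between the pulldowns in the direction of its change from Input: all 3 DCC-IP libraries (mean 3551 CPM) lay above all 3 Input libraries (mean 1180 CPM), and all 3 Nrp1-IP libraries (mean 522 CPM) lay below them. Groups were separate in these directions for 15.7% and 14.5% of all tested genes, and the Nrp1-IP change was not called (adjusted p 0.0729 by edgeR's quasi-likelihood test). FNIP1 was called between the pulldowns, but it was chosen from that contrast. Its call there is therefore not read as a test of the difference between these changes.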

How the results depend on the processing

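Depth limits these results: 8 of the 10 mRNAs rest on at most 226 counts, and with 3 libraries a group 1 library often decides a call. Mean CPM moved with the scaling. With MAP1B left out, FNIP1 was at 1556 for Input, 4213 for DCC-IP and 682 for Nrp1-IP, and TSC1 at 1427 in Nrp1-IP and 1118 in Input; on library size only, FNIP1 was at 607 and TSC1 at 1267 in Nrp1-IP. The median log2 difference of all genes was 0.16 in DCC-IP over Input, 0.00 with RLE, 0.48 with library size only and 0.34 without MAP1B. It was 0.06, -0.13 and 0.44 with the first 3 of these scalings in Nrp1-IP over Input, and -0.27, -0.11 and -0.10 in Nrp1-IP over DCC-IP, with -0.02 without MAP1B there. FNIP1 kept its direction in every fit of each comparison.

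Members called in DCC-IP over Input went from 1 to 0 with RLE and without MAP1B, and were 0 to 1 with a library left out. In Nrp1-IP over Input they went from 0 to 2 with DESeq2 and without the filter, and to 1 with RLE, with library size only and with at least 10 counts in every library; leaving out a library gave 0 to 1. Pathway genes called in DCC-IP over Input went from 3 to 8 with DESeq2 and with at least 10 counts, to 5 without the filter, to 6 with all libraries in one fit and with the replicate block, and to 0 without MAP1B; leaving out a library gave 0 to 3. In Nrp1-IP over Input they went from 3 to 6 with DESeq2 and with at least 10 counts, to 5 with library size only and with the replicate block, and to 7 without the filter; leaving out a library gave 0 to 4. In Nrp1-IP over DCC-IP, leaving out a library gave 1 to 4, against 4. Of the 5 genes most like FNIP1, 1 remained with Spearman's rho.

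Over all genes, 310 were called in DCC-IP over Input (91 higher, 219 lower), 1032 with DESeq2 (511 and 521), 73 without MAP1B, 805 with at least 10 counts, 780 with all libraries in one fit, 715 with the replicate block, and 0 to 250 with a library left out; library size only gave 141 and 167. In Nrp1-IP over Input the 323 (126 and 197) became 962 with DESeq2, 518 with library size only (351 and 167), 882 without the filter, 632 with at least 10 counts, 125 in one fit, 556 with the block and 0 to 441 with a library left out; RLE gave 85 and 265. In Nrp1-IP over DCC-IP the 235 (165 and 70) became 696 with DESeq2 (386 and 310), 484 without the filter, 459 with at least 10 counts, 369 with the block and 74 to 346 with a library left out; RLE gave 191 and 45, library size only 209 and 45, and MAP1B left out 232 and 41.

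Signs turned where values lay near 0. In DCC-IP over Input, FLCN was at 0.012 with library size only, 0.087 without MAP1B, 0.038 without the filter and -0.73 to 0.40 with a library left out. EIF4E was at 0.30 with library size only, 0.15 without MAP1B, 0.10 without the filter, 0.24 with at least 10 counts and -0.33 to 0.44 with a library left out, and TSC1 at -0.15 to 0.82. In Nrp1-IP over Input, RNF152 was at 0.31 and RICTOR at 0.016 with library size only, RICTOR at 0.28 with the replicate block, and with a library left out RNF152 ran from -0.53 to 0.22, RICTOR from -0.78 to 0.87, and RRAGC from -0.24 to 1.16. In Nrp1-IP over DCC-IP, FNIP2 was at 0.094 with RLE, 0.13 with library size only, 0.15 without MAP1B, 0.12 without the filter, 0.091 in one fit and 1.52 with the block; C9orf72 was at 0.029 without MAP1B, 0.0052 without the filter and 0.018 with the block, and MTOR at 1.94 with the block. With a library left out, FNIP2 ran from -0.38 to 2.70, MTOR from -0.68 to 3.78, FLCN from -0.56 to 0.36, SEH1L from -0.074 to 1.21 and C9orf72 from -0.36 to 0.75. The cause was not tested.

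Over all comparisons, a pulldown library matched its own number best in 8 of 9 checks. The checks set DCC-IP and Nrp1-IP libraries against Input, and Nrp1-IP libraries against DCC-IP. Nrp1-IP libraries were thus checked more than once, and Input libraries served only as matches. Same-numbered libraries had r 0.215, -0.0022 and 0.361 in Nrp1-IP over Input and 0.0993, 0.113 and 0.364 in Nrp1-IP over DCC-IP. Among the named genes, the replicate block there changed the call of SEH1L in Nrp1-IP over Input (adjusted p 0.0690 without and 0.0253 with it, by edgeR's quasi-likelihood test), and in DCC-IP over Input it changed no call of a named gene beyond those given above.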
